A study of Mus musculus with 6 samples.

Results

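Stra6 and 8 further genes of vitamin A (retinoid) uptake, binding, signaling and turnover were followed in cultured EMT6 cells. These 9 genes, Stra6, Crabp1, Crabp2, Rara, Rarb, Rarg, Rxra, Cyp26b1 and Dhrs3, were taken by gene identifier from a table of 53465 genes. They were listed with the difference between the same libraries already known. Their values in this comparison are therefore a description, with no test.

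Cells of EMT6, a mouse mammary carcinoma line, were kept in RPMI medium with 5% serum together with antibody for more than 4 weeks. The control cells (PVITRO, 3 libraries) received an isotype control antibody. The compared cells (PTRVITRO, 3 libraries) received an antibody against PD-L1, a ligand on tumor cells that dampens T cell responses. Both antibodies were used at 0.5 μg/ml, and the labels name no engineered allele for either group. Only tumor cells were cultured, so no T cells were supplied, and each group is a variant of 1 line. No separate cultures are named for the replicates, and the study calls its replicates technical where nothing else is given, so errors here describe the spread between libraries.

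Retinol travels in blood bound to a carrier protein, and STRA6 is the membrane receptor that takes retinol up from that carrier. Inside the cell, retinol is oxidized to retinal and then to retinoic acid, CRABP proteins bind retinoic acid in the cytoplasm, and CYP26 enzymes destroy it. Retinoic acid acts through RAR receptors, which pair with RXR receptors on DNA, and in mammary epithelium and many other tissues it is known for restraining growth and promoting differentiation.

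Retinoid receptors bind direct repeats of a 6-letter half-site, which was searched in promoter windows of 300 bases from RefSeq (GRCm38.p6), each with 250 bases before and 50 after a gene start. The half-site was taken as AGGTCA or as one of the related forms AGTTCA and also GGGTCA and also GGTTCA. Any pair of them was accepted on either strand with 1, 2 or 5 bases between them, and no other motif was searched. Windows were found for 8 of the 9 genes, 18 windows in all, and for 43 of 68 other retinoid pathway genes. Crabp2 had no entry. The repeat with a spacing of 5 was in 32 of 32851 windows (0.0974%), among them those of Rarb and of Cyp26a1, a retinoic acid-degrading enzyme. Both sites are shown because they belong to textbook retinoic acid-induced genes, and each is printed 5′ to 3′ on its gene's strand with the repeat in capitals.
Rarb: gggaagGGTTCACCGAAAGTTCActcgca
Cyp26a1: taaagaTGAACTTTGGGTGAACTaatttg
The Rarb stretch is chr14:16575507-16575535 on the minus strand, with the repeat 36 bases before the gene start, and an annotated exon of other Rarb transcripts covers it. The Cyp26a1 stretch is chr19:37697770-37697798 on the plus strand, with the repeat read on the opposite strand, 15 bases before the gene start.

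Stra6 had 4 windows, and none held a repeat of any of the 3 spacings. The 250 bases before its first RefSeq start, chr9:58128838-58129087 on the plus strand and outside annotated exons, are shown because Stra6 is the chosen gene that differed most between the groups. This start lies 65.3 kb downstream of the first GENCODE start of Stra6, which bounds the gene in the coordinates and neighbour distances given below, and the sequence before that GENCODE start was not searched.
Stra6: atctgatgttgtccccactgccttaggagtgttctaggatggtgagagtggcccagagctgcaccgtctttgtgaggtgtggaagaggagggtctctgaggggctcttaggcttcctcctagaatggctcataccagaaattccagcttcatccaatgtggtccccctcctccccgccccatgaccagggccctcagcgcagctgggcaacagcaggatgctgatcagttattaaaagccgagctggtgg
A single half-site was in 1 of the 4 Stra6 windows and in 6 of all 18 windows of the chosen genes, against 43.7% of all windows. The repeats with a spacing of 1 or 2 were in none of the 18 windows, and in 0.222% and 0.268% of all windows. A match of letters is a description and does not show binding.

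The libraries held 17757333 to 32426692 counts, and 14217 genes with enough counts were tested. A count of 3, taken as the floor, was 0.0925 CPM (counts relative to the library total, scaled by the upper quartile) in the deepest library and 0.168 CPM in the shallowest. The floor covers counting error only, whereas the SDs and SEs given below include the spread between libraries. Across all genes 35 were called at an adjusted p below 0.05 (0.246%), 14 of them higher (0.0985%) and 21 lower (0.148%) in PTRVITRO. DESeq2 called 104 (0.874% of those given an adjusted p) and limma-voom 31 (0.218%). The epithelial keratins Krt8 and Krt18 were at 1031 to 1128 and 480 to 568 CPM, whereas the epithelial cadherin Cdh1 never passed 1 count in a library. Vim, a mesenchymal filament gene, was at 1840 to 1972 CPM, and the leukocyte gene Ptprc was at 0 counts in every library.

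The question was which steps of retinoid handling differed after long culture with the PD-L1 antibody. Stra6 was higher in every PTRVITRO library than in any PVITRO library, by a ratio of 1.41 between group means. Crabp2, Rarg, Rxra, Cyp26b1 and Dhrs3 overlapped between the groups. Rara was lower in every PTRVITRO library, by a much smaller amount. Rarb had no counts, and Crabp1 had 1 count in 1 library. Of the 9 genes, 7 passed the filter, and 1 of the 7 was called, beside 0.246% of all tested genes, from which nothing is read because the genes were chosen on this contrast.

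**Figure D1:**
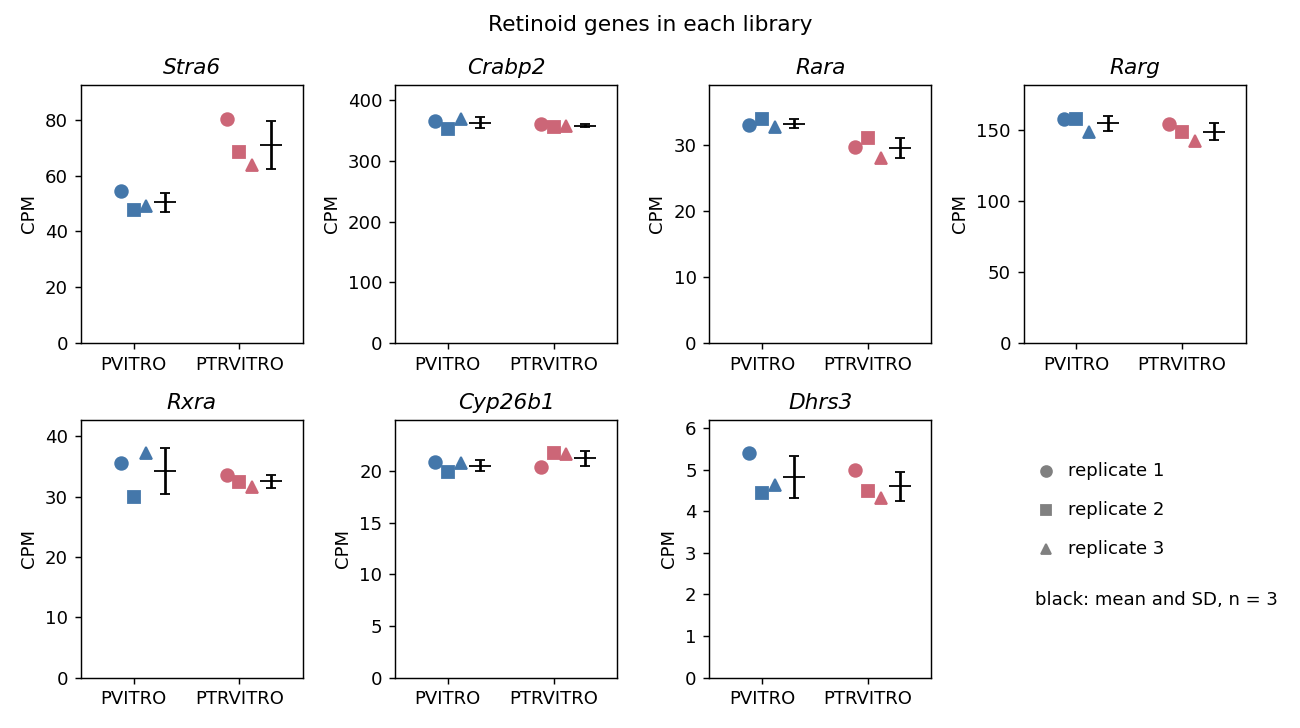
Each panel plots the CPM of 1 gene (vertical axis from 0) in the 3 PVITRO and the 3 PTRVITRO libraries, with symbols for replicate numbers and the mean and SD in black. Stra6 sits at 47.8 to 54.4 CPM in PVITRO and 64.0 to 80.5 CPM in PTRVITRO, while Crabp2, Rarg, Rxra, Cyp26b1 and Dhrs3 overlap.

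Stra6 (ENSMUSG00000032327.14) lies at chr9:58063788-58153996 on the plus strand (GRCm38) and is annotated with 14 transcripts. Its level was 54.4, 47.8 and 49.1 CPM in the PVITRO libraries and 80.5, 68.5 and 64.0 CPM in the PTRVITRO libraries. The lowest PTRVITRO library was therefore above the highest PVITRO library. The means were 50.4 ± 3.51 CPM and 71.0 ± 8.53 CPM (SD, n = 3 each), and the log2 fold change was 0.50 with an SE of 0.080. These values rest on 1188 to 1431 counts per PVITRO library and 1140 to 2610 counts per PTRVITRO library.

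Libraries of a group varied in Stra6 by more than counting alone gives. The coefficient of variation was 6.96% in PVITRO and 12.02% in PTRVITRO, whereas counting error was 2.78% and 2.30%. PTRVITRO replicate 1, the deepest library, was the highest, and PTRVITRO replicate 3, the shallowest, was the lowest of its group. PVITRO had the reverse order: replicate 2, its deepest, was the lowest at 47.8 CPM, and replicate 1, its shallowest, the highest at 54.4 CPM. A link to depth was not tested. Among all tested genes, 218 (1.53%) had a larger log2 fold change, and among the 14 called higher Stra6 ranked the 4th. Stra6 was chosen on this contrast, so both places are a description and nothing is read from them.

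**Figure D2:**
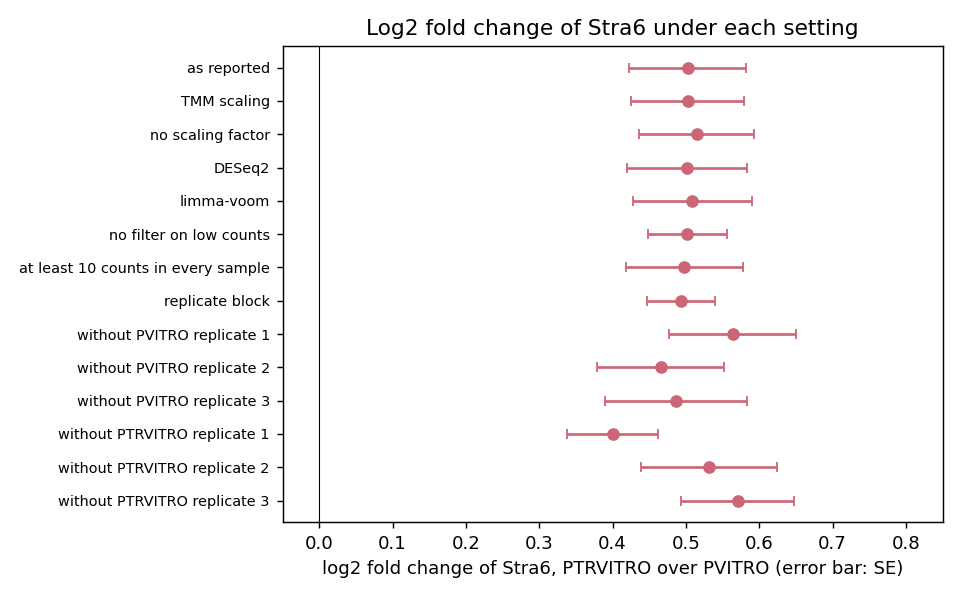
The horizontal axis gives the log2 fold change of Stra6, PTRVITRO over PVITRO, with its SE, under each setting on the vertical axis. The value stays between 0.40 without PTRVITRO replicate 1 and 0.57 without PTRVITRO replicate 3.

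The log2 fold change of Stra6 lay between 0.49 and 0.51 under 7 other ways of scaling, filtering, testing or blocking, and between 0.40 (without PTRVITRO replicate 1) and 0.57 (without PTRVITRO replicate 3) when 1 library was left out. All these fits use the contrast on which the gene was chosen, so they describe how far the value moves and are no test of it. The count of chosen genes called, 1 with all libraries, was 0 without PVITRO replicate 1, PVITRO replicate 2, PVITRO replicate 3 or PTRVITRO replicate 2, where the value was 0.56, 0.47, 0.49 and 0.53.

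Most markers of other cell types were at or under the floor. The 18 markers of T cells, B cells, myeloid cells, leukocytes, endothelium and fat summed to 0.901 to 0.985 CPM in PVITRO and 0.617 to 0.882 CPM in PTRVITRO, so the ranges did not overlap and were lower in PTRVITRO. Of these, 15 never exceeded 3 counts in a library, and 6 (Ptprc, Cd8a, Ms4a1, Adgre1, Plin1 and Cidec) were at 0 in every library. The myeloid gene Lyz2, above the floor, was at 0.571 CPM in PVITRO and 0.389 CPM in PTRVITRO without overlap (edgeR adjusted p = 0.56), about the size of the drop in the sum. The B cell gene Cd79a went the other way, from 0.089 to 0.205 CPM, with overlap.

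Over all tested genes, 11.4% had an unadjusted p below 0.05 in edgeR, groups did not overlap in 8.27% (higher) and 9.33% (lower), and DESeq2 called 0.874% of those it adjusted. Among the 6 epithelial markers, 4 were tested and 0 were called by edgeR or limma-voom, 1 was called by DESeq2 (Krt18), and 3 had an unadjusted p below 0.05 in edgeR. Krt18 was higher in PTRVITRO without overlap (489.0 and 549.0 CPM, edgeR adjusted p = 0.139), as was Epcam (1.59 and 2.24 CPM, a ratio of 1.41, edgeR adjusted p = 0.392). Krt14 was lower without overlap (8.76 and 7.33 CPM, edgeR adjusted p = 0.347), and Krt8 overlapped. The sum of the 6, carried by Krt8, was 1523 to 1645 CPM in PVITRO and 1606 to 1687 CPM in PTRVITRO. Among the 4 mesenchymal markers, 3 were tested, 0 were called by edgeR or limma-voom, 1 was called by DESeq2 (Col1a1), and 2 had an unadjusted p below 0.05 in edgeR. Fn1 (6645 and 5866 CPM) and Col1a1 (1112 and 979 CPM) were lower in PTRVITRO without overlap, whereas Vim stood at 1889 and 1890 CPM and Cdh2 had 2 counts in all. The sum of the 4, mostly Fn1, was 9328 to 10143 CPM in PVITRO and 8515 to 8923 CPM in PTRVITRO. The part of these shifts in the Stra6 result was not tested. In bulk RNA, a change in the number of cells that express a gene and a change in RNA per cell cannot be told apart.

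Genes around Stra6 were compared because they share its stretch of chromosome 9 and did not enter the choice. Of 10 protein-coding genes that start within 250 kb of the Stra6 start, 6 were tested and 0 were called by edgeR, DESeq2 or limma-voom, and 1 had an unadjusted p below 0.05 in edgeR. That gene, Loxl1, which encodes a crosslinking enzyme of elastic fibers, was at 1.76, 1.90 and 1.78 CPM in PVITRO and 1.11, 1.24 and 0.898 CPM in PTRVITRO. Its log2 fold change was -0.72 ± 0.21 (SE), opposite in sign to Stra6, with an adjusted p of 0.208 in edgeR. The other 5 tested neighbours, Ubl7, Sema7a, Islr, Pml and Stoml1, had log2 fold changes from -0.14 for Islr to 0.07 for Ubl7, and all 5 overlapped between the groups. Single libraries moved these limits: Islr was at -0.06 without PVITRO replicate 1, -0.07 without PTRVITRO replicate 3 and -0.23 without PTRVITRO replicate 1, and Ubl7 at 0.04 without PTRVITRO replicate 1 and 0.10 without PTRVITRO replicate 2. Arid3b, Cyp11a1, Ccdc33 and Islr2 had 23, 1, 16 and 9 counts over all 6 libraries and were not tested.

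**Figure D3:**
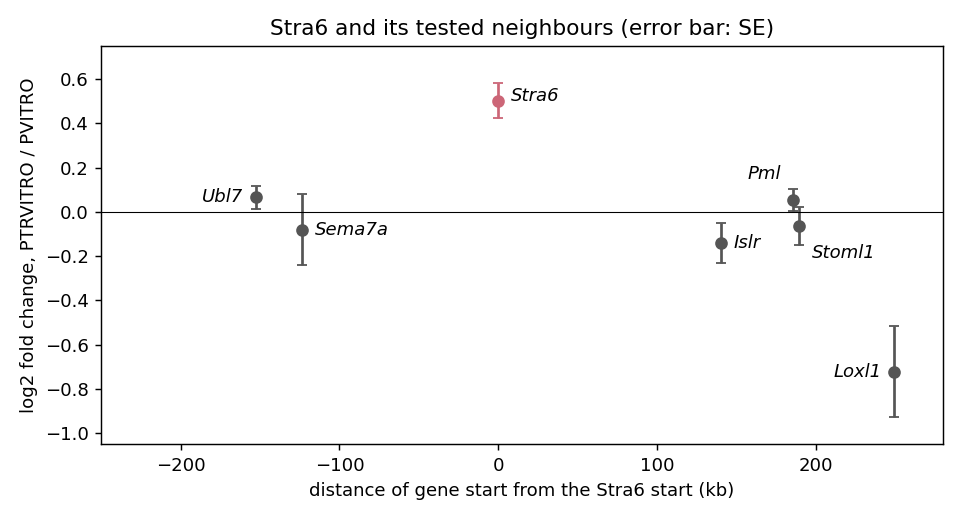
The vertical axis gives the log2 fold change, PTRVITRO over PVITRO, with its SE, and the horizontal axis the distance of each gene's start from the Stra6 start in kb. Stra6 stands at 0.50, 5 neighbours lie between -0.14 and 0.07, and Loxl1 lies at -0.72.

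Ccdc33, on the opposite strand, spans part of the Stra6 locus without sharing exon bases, and Gm16131, also within the locus, had 0 counts. No transcript of another gene matched Stra6, Crabp1, Crabp2, Rara, Rarg, Rxra, Cyp26b1 or Dhrs3 at 95% identity or more over 200 bases. Reads of these 8 genes were thus not shared with a near-identical copy by this measure.

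The genes whose pattern over the 6 libraries was most like that of Stra6 were found by Pearson's r of log2(CPM + 1), as a description of 6 points that include the group difference itself. They were Fgfbp1, a secreted carrier of fibroblast growth factors (r = 0.994), Slc44a3, a choline transporter-like gene (r = 0.994), Gins1, a DNA replication factor (r = 0.994), the predicted gene Gm13092 (r = 0.993) and Sncg, gamma-synuclein (r = 0.989). Their mean levels in PVITRO and PTRVITRO were 34.7 and 45.7 CPM for Fgfbp1, 26.5 and 30.7 CPM for Slc44a3, and 11.8 and 14.5 CPM for Gins1. Sncg went from 107.9 to 128.9 CPM and Gm13092 from 64.4 to 68.2 CPM. All 5 had their highest value in PTRVITRO replicate 1, as Stra6 did.

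The binding protein genes Crabp1 and Crabp2 stood at very different RNA levels. Crabp2 (chr3:87948666-87953376, plus strand), which carries retinoic acid to nuclear receptors, was at 366.4, 353.6 and 370.2 CPM in PVITRO and 361.5, 355.7 and 358.4 CPM in PTRVITRO. All 3 PTRVITRO values lie within the PVITRO range. The log2 fold change was -0.02 with an SE of 0.032, and the coefficient of variation was 2.39% and 0.813% against a counting error of 1.03% in both groups. With 1 library left out, the fold change of Crabp2 ran from -0.04 without PVITRO replicate 2 to -0.0036 without PVITRO replicate 3, and it was -0.0078 without PVITRO replicate 1 and -0.01 without PTRVITRO replicate 2. Crabp1 (chr9:54764748-54773110, plus strand), which is linked to cytoplasmic retinoic acid breakdown, had 0 counts in 5 libraries and 1 count in PTRVITRO replicate 3. That is below the floor of 3 counts, so no fold is given.

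Among the retinoic acid receptors, Rarg was the most abundant and Rarb was not detected. Rarg (chr15:102234938-102257517, minus strand) was at 157.5, 157.9 and 148.3 CPM in PVITRO and 154.3, 148.7 and 142.4 CPM in PTRVITRO. The groups overlapped, with a log2 fold change of -0.06 and an SE of 0.043. The Rarg value was -0.02 without PTRVITRO replicate 3 and -0.08 without PTRVITRO replicate 1. Rara (chr11:98927818-98974942, plus strand) was at 33.05, 34.01 and 32.71 CPM in PVITRO and 29.7, 31.0 and 28.0 CPM in PTRVITRO. Every PTRVITRO library was below every PVITRO library, and the log2 fold change was -0.17 with an SE of 0.053.

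Groups did not overlap, in the lower direction, in 9.33% of all tested genes, and in the higher direction in 8.27%. Of the chosen genes, Rara was the 1 in the lower and Stra6 the 1 in the higher direction. Rara was not called with all libraries or when any 1 library was left out, and its log2 fold change stayed between -0.20 and -0.13 in those fits. The small nuclear RNA gene Gm22061, inside the Rara locus, had 0 counts and shares no exon bases with it.

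Rarb (chr14:16430839-16819156, minus strand) had 0 counts in all 6 libraries, which allows at most 0.0925 CPM in the deepest library and 0.168 CPM in the shallowest. It is the gene whose receptor element is printed above, and it is known as a direct target that retinoic acid switches on. Its exons share 1793 bases with Top2b, a topoisomerase gene on the opposite strand, which held 4269 to 7685 counts per library. Gm48162, antisense to Rarb with 227 shared exon bases, had 0 counts. Whether the counting used the strand of the reads was not given in the sources used here, so reads in the shared bases cannot be told apart by origin.

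Taken as shares of the summed level of Rara, Rarb and Rarg per exon length, Rarg made up 82.6 ± 0.354% in PVITRO and 83.7 ± 0.577% in PTRVITRO (SD, n = 3). Rara made up 17.4% and 16.3% with the same SDs, and Rarb 0%. The Rara share was 17.0%, 17.4% and 17.7% in PVITRO and 15.8%, 16.9% and 16.1% in PTRVITRO. The highest PTRVITRO share lay just below the lowest PVITRO share, nearer to it than the SD within either group. In each library Rarg stood 4.65 to 5.33 times as high as Rara.

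Rxra (chr2:27676440-27762957, plus strand), one of the RXR genes whose products pair with RAR proteins on DNA, was at 35.6, 30.0 and 37.2 CPM in PVITRO and 33.6, 32.4 and 31.5 CPM in PTRVITRO. PVITRO replicate 2 was the lowest of all 6 and replicate 3 of that group the highest, so the PTRVITRO values fell inside the PVITRO range. The log2 fold change was -0.07 with an SE of 0.075. It ranged from -0.16 without PVITRO replicate 2 to -0.0028 without PVITRO replicate 3, and was -0.03 without PVITRO replicate 1 and -0.04 without PTRVITRO replicate 3.

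The 2 enzymes of the set act on different retinoids. Cyp26b1 (chr6:84571414-84593908, minus strand) breaks retinoic acid down. It was at 20.8, 19.9 and 20.8 CPM in PVITRO and 20.4, 21.7 and 21.6 CPM in PTRVITRO, a log2 fold change of 0.05 with an SE of 0.059. The value for Cyp26b1 was 0.03 without PVITRO replicate 2 or PTRVITRO replicate 2 and 0.08 without PTRVITRO replicate 1. Dhrs3 (chr4:144892827-144928209, plus strand) reduces retinal back to retinol and is known as a gene that retinoic acid induces. It was at 5.39, 4.44 and 4.63 CPM in PVITRO and 5.00, 4.48 and 4.32 CPM in PTRVITRO, on 77 to 162 counts per library, with a log2 fold change of -0.06 and an SE of 0.13. The value for Dhrs3 was -0.12 without PTRVITRO replicate 1, -0.11 without PVITRO replicate 2, -0.03 without PTRVITRO replicate 2, -0.01 without PTRVITRO replicate 3 and 0.03, with the other sign, without PVITRO replicate 1. Both genes overlapped between the groups, and the spread of Dhrs3 (10.5% and 7.67%) was close to its counting error (8.99% and 9.05%).

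Over the 7 tested genes the median log2 fold change was -0.06, beside -0.0040 over all 14217 genes tested. The median of the 7 depends on single libraries: it was -0.0036 without PVITRO replicate 3, -0.0078 without PVITRO replicate 1, -0.01 without PTRVITRO replicate 3, -0.03 without PTRVITRO replicate 2 and -0.08 without PTRVITRO replicate 1. Of the 7, Stra6 and Cyp26b1 had values above 0 and 5 had values below 0, beside 48.5% of all tested genes above 0. Apart from Stra6, all 6 values were under 0.2 in size.

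Levels can be compared between genes only per length, and they were computed as counts per summed exon length, scaled to the same sum in every library, as TPM values are. In that unit Crabp2 stood at 718.3 to 733.1, Rarg at 90.0 to 99.5, Stra6 at 22.0 to 36.3, Rara at 17.3 to 20.9, Rxra at 14.7 to 17.8, Cyp26b1 at means of 10.1 in PVITRO and 10.6 in PTRVITRO, and Dhrs3 at 3.98 to 4.84. Within each group no neighbours in this order overlapped, apart from Rarb and Crabp1 at the bottom. By this length Stra6 stood 1.05 to 1.23 times as high as Rara in PVITRO and 1.65 to 2.03 times in PTRVITRO. Rara and Rxra overlapped once both groups were pooled. The order of the 7 genes was the same when the longest transcript was used as the length, but the gaps between neighbours differed. Stra6 was then at 33.0 to 36.9 in PVITRO and 44.3 to 54.6 in PTRVITRO, while Rara was at 20.1 to 21.4 and 17.6 to 19.6.

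**Figure D4:**
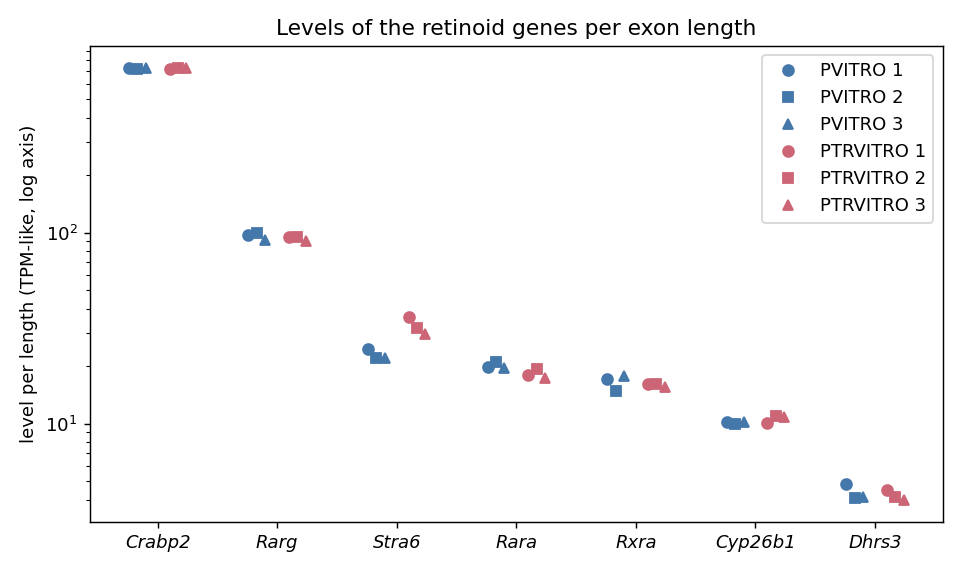
The vertical axis gives the level per exon length (TPM-like, log axis) of the 7 detected genes in each of the 3 PVITRO and 3 PTRVITRO libraries. Crabp2 lies at 718.3 to 733.1 and Dhrs3 at 3.98 to 4.84; Rarb and Crabp1, at 0 or 1 count, are not drawn.

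The ratio of Crabp2 RNA to Stra6 RNA followed Stra6, as Crabp2 itself overlapped between the groups. Crabp2 stood 29.7, 32.6 and 33.2 times as high as Stra6 per length in PVITRO and 19.8, 22.9 and 24.7 times in PTRVITRO. The size of this ratio depends on the length used. With the longest transcript, mean levels of Crabp2 and Stra6 were 818.6 and 34.4 in PVITRO and 816.7 and 48.9 in PTRVITRO. Between Crabp2 and Rarg the ratio was 7.22 to 8.04 in PVITRO and 7.55 to 8.11 in PTRVITRO, which overlap.

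The other genes of the pathway were taken from a list of 68 arranged by role, and their differences were tested over all genes. Of the 68, 43 passed the filter. None of the 43 was called by edgeR or limma-voom, 7 had an unadjusted p below 0.05 in edgeR (3 higher, 4 lower), and DESeq2 called 1, Adh7. DESeq2 gave no adjusted p to 29 of the 68, so it could not call these. Unadjusted p values below 0.05 were held by 11.4% of all tested genes. The median log2 fold change was -0.03, and 22 genes had fewer than 6 counts in all libraries together.

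**Figure D5:**
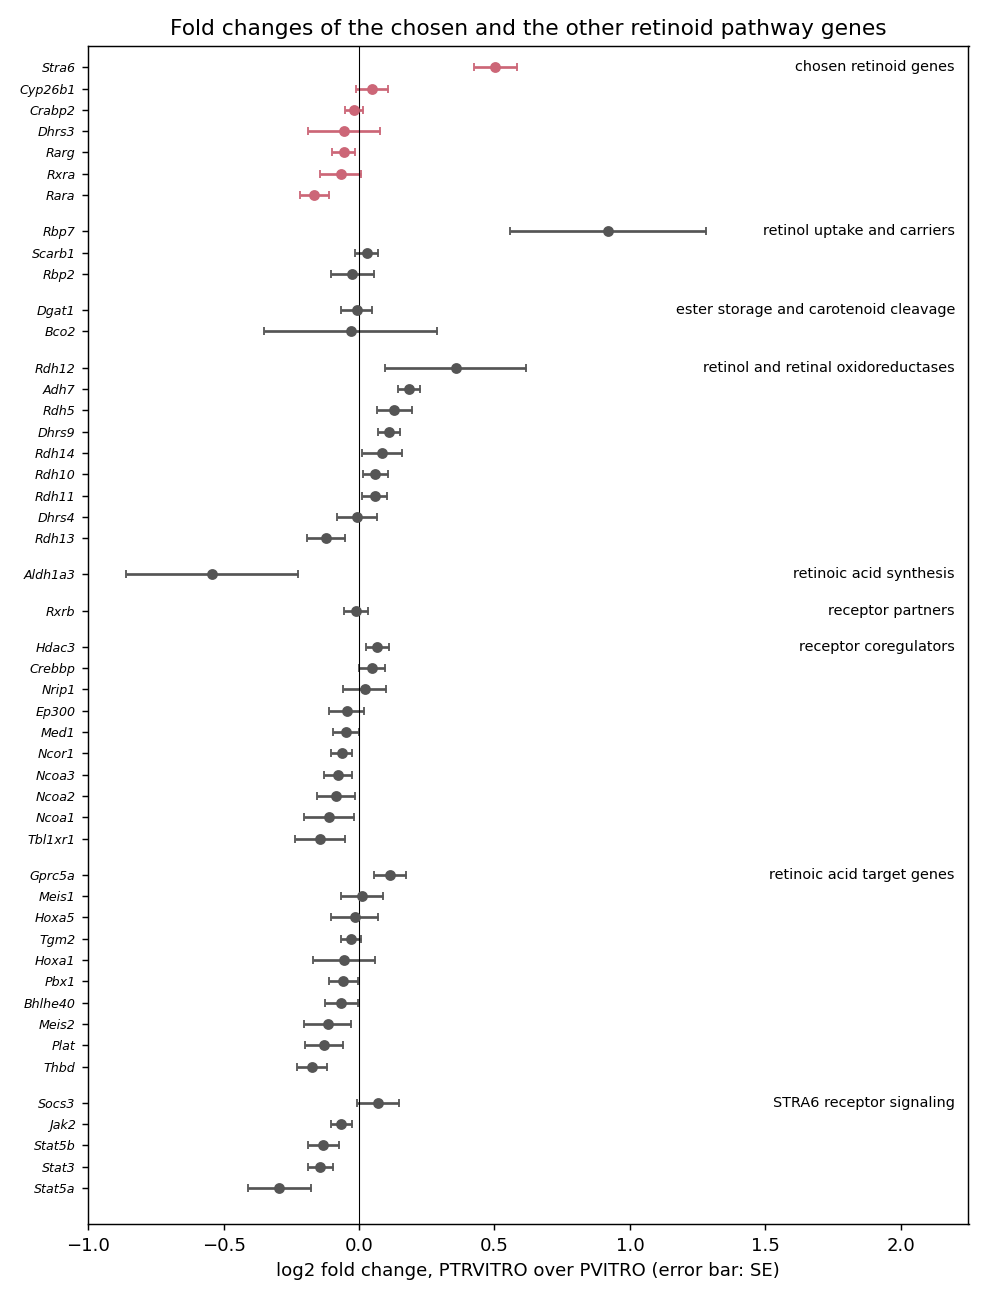
The horizontal axis gives the log2 fold change, PTRVITRO over PVITRO, with its SE, for the 7 tested chosen genes and 41 of the 43 tested genes of the pathway list, in rows by role. Stra6 at 0.50 is well to the right of the other chosen genes; Rbp7 and Aldh1a3, with values of 0.92 and -0.54, have few counts and wide errors.

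Among 7 genes of retinol uptake and carriage, 4 were tested and 0 called by edgeR, DESeq2 or limma-voom, with 1 (Rbp7) at an unadjusted p below 0.05. DESeq2 gave no adjusted p to 4 of the 7, so it could not call these. Rbp2, a cellular retinol carrier of the intestine, was at 20.1 ± 1.08 CPM in PVITRO and 19.9 ± 2.01 CPM in PTRVITRO (SD, n = 3; adjusted p = 0.938 in edgeR). Rbp4, the blood carrier whose retinol STRA6 takes up, Ttr, which travels with it, and Stra6l, the second receptor for it, had 0 counts in all 6 libraries. Rbp7, chosen here after its values were seen, had 5 to 15 counts per library and a log2 fold change of 0.92 (adjusted p = 0.358 in edgeR).

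Of 12 genes whose enzymes interconvert retinol and retinal, 9 were tested, 0 were called by edgeR or limma-voom, 1 was called by DESeq2, and 2 (Adh7 and Dhrs9) had an unadjusted p below 0.05 in edgeR. DESeq2 gave no adjusted p to 4 of the 12. Adh7, an alcohol dehydrogenase that accepts retinol, was at 144.4, 144.7 and 146.6 CPM in PVITRO and 156.2, 169.3 and 169.8 CPM in PTRVITRO. All 3 PTRVITRO libraries were above the PVITRO libraries. The log2 fold change was 0.18 ± 0.041 (SE), with an adjusted p of 0.12 in edgeR, 0.122 in limma-voom and 0.0336 in DESeq2. Without PTRVITRO replicate 1 the edgeR adjusted p was 0.048. Over the other alternatives in which edgeR was used, the adjusted p lay between 0.0088 with no filter on low counts and 0.438 without PTRVITRO replicate 2.

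Dhrs9, a retinol dehydrogenase of epithelia, was at 97.4 ± 1.47 CPM and 105.3 ± 3.99 CPM (SD, n = 3), a log2 fold change of 0.11 with an edgeR adjusted p of 0.32. Of the 9 tested genes of this role, 7 had positive log2 fold changes, beside 48.5% of all tested genes. The values ran from -0.12 for Rdh13 to 0.36 for Rdh12, with edgeR adjusted p values of 0.549 and 0.65.

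Retinoic acid synthesis from retinal had very low transcript levels. Aldh1a1, Aldh1a2 and Aldh8a1 had 2, 1 and 2 counts over all 6 libraries. Aldh1a3, the only tested gene of the 4, had 12, 15 and 12 counts in PVITRO and 10, 11 and 6 counts in PTRVITRO. Its log2 fold change was -0.54 ± 0.32 (SE), and the edgeR adjusted p was 0.573. Lrat, which stores retinol as esters, had 0 counts, and Dgat1, which also acts on other lipids, was at 26.6 and 26.4 CPM (edgeR adjusted p = 0.97).

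Beside Cyp26b1, the other retinoic acid-degrading enzymes were at or near 0. Cyp26c1 had no counts, and Cyp26a1, which carries the receptor element printed above, had 5 counts over 6 libraries. Fabp5, which delivers retinoic acid to another receptor, had 3 counts, all in PTRVITRO replicate 1. It is uncertain, because Gm14328 and Gm6166 match it at 97.3% and 98.3% identity over 408 and 409 bases, and both copies had 0 counts.

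Among receptor partners, Rxrb was at 43.8 ± 0.939 CPM in PVITRO and 43.4 ± 0.520 CPM in PTRVITRO (SD, n = 3; edgeR adjusted p = 0.949), and Rxrg had 0 counts. All 11 coregulators were tested and 0 were called by any of the 3 tools, with 0 at an unadjusted p below 0.05 and log2 fold changes from -0.14 to 0.07. Hdac3, a deacetylase of the corepressor complex of unliganded receptors, had a value of 0.07 (edgeR adjusted p = 0.58), the highest of the 11, and of 0.04 without PVITRO replicate 3.

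Of 19 genes known to respond to retinoic acid, 10 were tested and 0 were called by edgeR, DESeq2 or limma-voom, with 1 at an unadjusted p below 0.05. Tgm2, the tissue transglutaminase, was at 287.6 ± 10.04 CPM in PVITRO and 281.8 ± 6.85 CPM in PTRVITRO (SD, n = 3; edgeR adjusted p = 0.822). Gprc5a, a retinoic acid-induced membrane protein, was at 123.7 ± 11.1 CPM and 134.0 ± 4.22 CPM (edgeR adjusted p = 0.505). Thbd, thrombomodulin, named after its values were seen, was at 24.9 ± 0.787 CPM and 22.0 ± 0.687 CPM, with an edgeR adjusted p of 0.269. Of the 9 genes not tested, 6 had no count in any library, among them Hoxb1, Rarres1 and Cdx1.

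STRA6 is also described as a signaling receptor that acts through JAK2 and STAT5, with SOCS3 and PPARG as targets. Of 6 genes of that route, 5 were tested, 0 were called by edgeR, DESeq2 or limma-voom, and 3 had an unadjusted p below 0.05, all with lower means in PTRVITRO. Over all tested genes, 11.4% had an unadjusted p below 0.05 in edgeR, and 48.5% had a log2 fold change above 0. Jak2 was at 90.7, 93.1 and 92.7 CPM in PVITRO and 85.2, 88.7 and 90.7 CPM in PTRVITRO, and Socs3 at 24.5 ± 2.57 CPM and 25.6 ± 1.18 CPM (edgeR adjusted p = 0.576 and 0.777). Pparg had 1 count. The 3 genes at an unadjusted p below 0.05, named after their values were seen, were Stat3, Stat5a and Stat5b, with log2 fold changes of -0.14, -0.29 and -0.13 and edgeR adjusted p values of 0.262, 0.355 and 0.414. Stat3 and Stat5b were lower without overlap between the groups, as were 9.33% of all tested genes. Stat5a overlapped, and its value was -0.18 without PVITRO replicate 1 and -0.42 without PVITRO replicate 2.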

How the data were processed

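The authors sequenced polyadenylated RNA as stranded libraries, aligned reads with STAR 2.6.0a to GRCm38 (GENCODE M16) and quantified genes with RSEM 1.3.1, with FastQC 0.11.5 for read quality (tool versions per the submitters' processing notes). The deposited table holds estimated counts per gene, not scaled between samples; all 6 columns were used.

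Estimated counts were rounded and filtered with filterByExpr (minimum count 10, minimum total 15). After upper-quartile scaling, glmQLFit and glmQLFTest of edgeR 4.0.16 (R 4.3.3) compared the groups, without covariates. Benjamini-Hochberg adjustment ran over 14217 genes, and each SE came from the F statistic. The steps were tested on simulated data. Depth was 17757333 to 32426692 counts per library, and the common biological variation (edgeR's BCV) was 5.00%. DESeq2 1.42.0, limma-voom (limma 3.58.1), other scalings, filters, a replicate block and leaving out each library were alternatives. An annotation of the same build (GENCODE M21) placed 53360 of 53465 genes. Copies were searched with BLAST+ 2.17.0.

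The genes and lists were chosen with earlier results of these data known. Named by rule were all chosen genes, the 5 most like Stra6, Stra6 neighbours, overlapping genes and markers. Per role of the pathway list, the rule named called genes and the 2 with the highest level per length. Further pathway genes were named outside the rule. They include genes with few or no counts, genes at the ends of a range and genes at an unadjusted p below 0.05. Results of 2 pathway genes are not reported here by name.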

Additional observations from a re-analysis of the deposited data

How the results depend on the processing

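The 35 calls across all genes became 104 with DESeq2, 400 with no filter on low counts, 54 when each library had to hold 10 counts, and 8 to 64 when 1 library was left out. The number of chosen genes called, 1, ran from 0 to 1 when 1 library was left out and stayed 1 otherwise. The number of pathway genes called, 0, was 1 (Adh7) with DESeq2 and with no filter, and 0 to 1 when 1 library was left out. The cause of these changes was not tested.

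With the longest transcript as length, mean levels moved from 27.7 to 41.6 for Stra6, 726.2 to 817.6 for Crabp2, 94.6 to 108.2 for Rarg, 16.2 to 14.3 for Rxra and 10.4 to 9.80 for Cyp26b1. The Rara share became 15.8% in PVITRO and 14.8% in PTRVITRO, and the Rarg share 84.2% and 85.2%.

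Under the replicate block (replicate number as a term), 68 genes were called, 1 of them a chosen gene and 0 of them in the pathway list. Same-numbered libraries deviated together with r = 0.229, 0.103 and -0.046, and differently numbered ones with r from -0.285 to 0.191. These few values cannot tell whether the numbers pair the libraries.

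Of 385 alternative log2 fold changes of 30 genes, 17 had another sign, in genes with values under 0.1 in size that were not called; 1 of them was Dhrs3, at 0.03 without PVITRO replicate 1. Apart from libraries left out, these were Dgat1 at 0.00303 and Rxrb at 0.00104 with no scaling factor, and Bco2 at 0.00368 with DESeq2 and 0.00747 with the replicate block. With 1 library left out, values spanned -0.0881 to 0.0482 for Rbp2, -0.0472 to 0.0354 for Dgat1, -0.167 to 0.177 for Bco2, -0.0289 to 0.00216 for Rxrb, -0.0458 to 0.00532 for Tgm2, -0.00981 to 0.127 for Socs3 and -0.177 to 0.0601 for Sema7a. Rarb and Crabp1 were under the floor of 3 counts in every library, so no fold can be given for them at this depth.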
